A study of Mus musculus with 4 samples.

Results

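Mir183, Mir96 and Mir182 form a cluster of 3 microRNA genes that lie side by side and are copied from 1 primary transcript. It was read here through 3 probes, 1org-182, 1org-183 and 1org-96, which are all the probes whose ID ends in the number of a member, out of 171 miRNA probes in the value table. The platform annotation listed 1org-182 as Mir182 and 1org-96 as Mir96, while 1org-183 was not in that annotation and is taken as miR-183 from its ID. A further probe, 2org-182*, carries the star that older nomenclature gave to the less abundant arm of a hairpin and is described beside the members. MicroRNAs are short RNAs that guide Argonaute proteins to messenger RNAs, chiefly through the seed, the bases near their 5′ end. The cluster is best known from the sensory cells of the eye, ear and nose, and changes in the seed of miR-96 cause progressive hearing loss. In T cells the members rise after activation, and miR-182, induced by interleukin-2 signalling, represses Foxo1, a transcription factor of resting lymphocytes that also supports Foxp3.

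The study compared mouse T cells that had been activated and transduced with Foxp3, which specifies the regulatory T cell lineage, with activated T cells that had received a control vector in its place. The 2 RNAs of a time point competed on 2-colour arrays, at 72 h and at 96 h. Each time point had 2 arrays: replicate 1 carried the Foxp3 RNA in Cy5 and the control RNA in Cy3, and replicate 2 the reverse. The labels do not state the strain or age of the mice, the vector, the purity of the transduced cells or what the hours were counted from. All 4 arrays thus compare activated cells with activated cells, and none holds resting cells, so the rise of the cluster on activation itself is not measured.

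The mature sequences are shown because they bear on what the probes can tell apart and on which targets the members share. Sequences and positions are those of RefSeq on mouse assembly GRCm38.p6, where all 3 hairpins lie on the minus strand of chromosome 6. Mir183 is at chr6:30169668-30169737, Mir96 at chr6:30169446-30169551 and Mir182 at chr6:30165918-30165992, in this order along the transcript. Only 116 bases separate Mir183 from Mir96, whereas 3453 bases lie between Mir96 and Mir182, all inside the long noncoding RNA gene Mirc35hg (30158640 to 30174125). The arms named 5p, from 5′ to 3′ with the seed (bases 2 to 8) in capitals, are:
miR-182-5p: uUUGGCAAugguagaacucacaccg
miR-96-5p: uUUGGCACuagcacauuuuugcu
miR-183-5p: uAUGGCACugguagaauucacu

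No pair of these has the same seed over bases 2 to 8. miR-182 and miR-96 share bases 2 to 7 and differ at the last base of the seed, whereas miR-183 differs from both at base 2. Of the 1738 mature mouse miRNAs in the sequence table, only miR-1271-5p shared a seed with a member, and no probe carried its number. Over all positions compared, seed included, the likeness runs the other way. miR-182 and miR-183 were identical at 18 of 22 positions (81.8%) counted from the 5′ end, and the substitutions from miR-182 to miR-183 were U2A, A8C, C17U and A22U. miR-96 matched miR-182 at 12 of 23 positions (52.2%) and miR-183 at 13 of 22 (59.1%). Probe sequences were not used here, and whether the miR-182 and miR-183 probes also bound each other's RNA was not tested. The Mir182 hairpin, with the 5p arm and then the 3p arm in capitals, shows the 2 arms that a plain and a star probe would read separately:
Mir182 hairpin: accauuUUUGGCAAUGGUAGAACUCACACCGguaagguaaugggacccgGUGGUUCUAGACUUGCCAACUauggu

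The deposited value of a probe is 1 log ratio per array, taken as log2, and no intensity was used here, so whether a member was above background is unknown. Values were read as Cy5 over Cy3 and turned in sign where Cy3 carried Foxp3, so that a positive turned ratio stands for a level likely higher with Foxp3. That direction is not settled. Deposited values of the 2 arrays correlated across the 171 probes at r = 0.66 at 72 h and -0.12 at 96 h, and neither value settles whether signs had already been turned. The ratios, counts and lists are therefore also given for the other reading, in which the table already holds Foxp3 over control on every array. Arrays shared no centring, with miRNA medians of -0.59 and -0.83 at 72 h (replicates 1 and 2) and 1.27 and 0.02 at 96 h. The 2 arrays of a time point share their RNAs and count as 1 replicate, so n is 2 time points and the SD of a mean is between these; no label says whether they are separate cultures.

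As deposited, probe 1org-182 had -0.37 and -0.69 on the 72 h arrays (replicates 1 and 2) and 1.08 and -0.72 on the 96 h arrays. It was above 0 on 1 array, 96 h replicate 1, where it still lay under that array's miRNA median of 1.27, and below 0 on the other 3. Probe 1org-96 had -0.80 and -1.05 at 72 h and 1.66 and 0.03 at 96 h. Both of its 72 h values lay below both 96 h values, so the time points did not overlap in the deposited values. In these values 116 of 171 probes (67.8%) were higher at 96 h by at least 1.5-fold with no overlap. Probe 1org-183 had 0.25 and -0.68 at 72 h and 1.51 and -0.10 at 96 h. Its values changed sign with the dye at both time points, being above 0 where Foxp3 was in Cy5 and below 0 where it was in Cy3, and this was the 1 member to do so.

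The members mostly followed the bulk of the arrays. Set against the other miRNA probes of the same array, which does not depend on centring, 1org-96 ranked between percentiles 36.5 and 64.7 over the 4 arrays. 1org-183 ranked between percentiles 44.7 and 87.6, its highest place being on 72 h replicate 1. 1org-182 ranked at percentiles 61.2 and 58.2 at 72 h and 40.6 and 17.6 at 96 h. Its low place at 96 h was on the array with Foxp3 in Cy3, where it stood -0.74 from the median of the array.

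**Figure D1:**
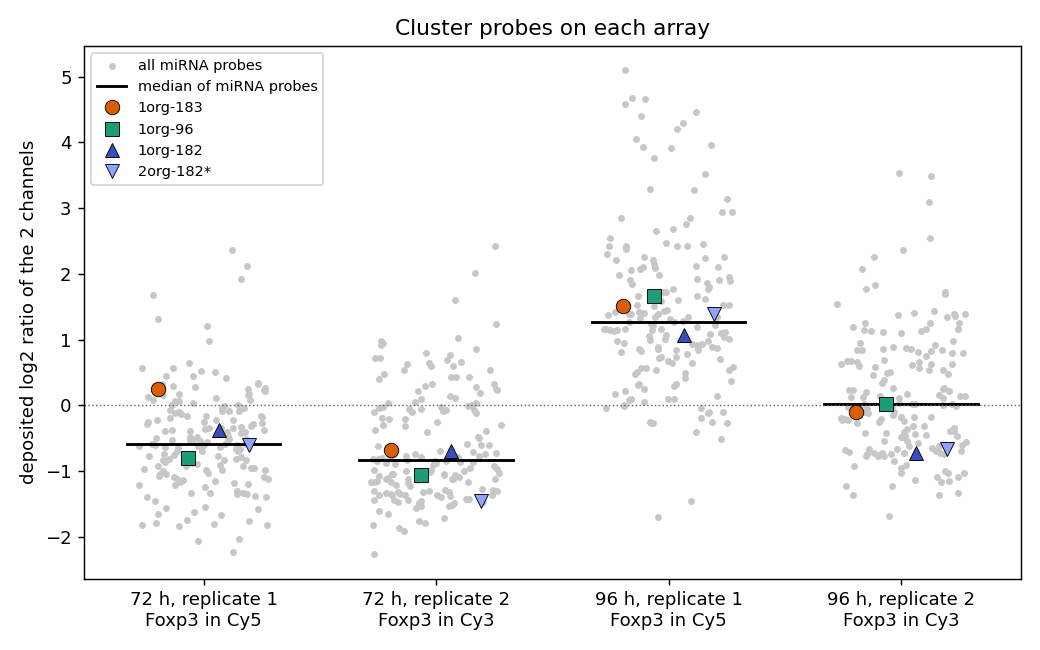
Deposited log2 ratio (vertical axis) on each of the 4 arrays for all 171 miRNA probes (grey points, spread sideways for legibility), their median (black line), the 3 cluster probes and 2org-182*. The cluster probes lie near the median on most arrays, with 1org-183 at 0.25 above the -0.59 median of 72 h replicate 1 and 1org-182 at -0.72 below the 0.02 median of 96 h replicate 2.

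The first comparison asked whether the cluster differed between Foxp3 and control cells over both time points. All 3 members had mean turned ratios above 0, likely higher with Foxp3, but none differed from 0 beyond the error. The mean log2 ratio was 0.63 ± 0.24 (SD, n = 2) for 1org-183, 0.53 ± 0.52 (SD, n = 2) for 1org-182 and 0.47 ± 0.49 (SD, n = 2) for 1org-96, or 1.55-fold, 1.44-fold and 1.39-fold. The median over all 171 miRNA probes was 0.45, so the members sat close to the middle, at ranks 48, 69 and 81 from the top. In limma's intercept-only fit over all miRNA probes the standard error was 0.479 for every probe. The 95% confidence interval was -0.31 to 1.58 for 1org-183, -0.42 to 1.47 for 1org-182 and -0.47 to 1.42 for 1org-96, and limma's adjusted p was 0.578, 0.58 and 0.589. The fit called 0 of 171 probes (0.0%) at an adjusted p of 0.05, and 16 (9.36%) had an unadjusted p under 0.05, none of them a member. A limma model of the 4 arrays with a dye term also called 0 probes, with 1 unadjusted p under 0.05 and an adjusted p of 0.8 for each member. That model counts the 2 arrays of a time point separately, although they share their RNAs.

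The call depended on a single array, and the size on each of the 4. When an array is left out, its time point rests on the other array alone. The dye and centring offset of that array then enters the ratio in full. With both arrays, the dye swap removes only the part of the offset that they share. The 96 h arrays had unlike miRNA medians, 1.27 and 0.02, so a centring offset stays in the turned 96 h ratios too. Without replicate 1 of 72 h (Foxp3 in Cy5), the means were 0.74, 0.79 and 0.94 for 1org-183, 1org-182 and 1org-96, and all 3 passed limma (adjusted p = 0.0423, 0.038 and 0.0295). In that setting limma called 94 of 171 probes (55.0%), 89 of them on the likely higher side (52.0%), so the 3 of 3 members have to be read against that share. Without the 72 h array with Foxp3 in Cy3 the means were 0.53, 0.27 and 0.0087. Leaving out the 96 h array with Foxp3 in Cy5 gave 0.28, 0.44 and 0.05, and leaving out that with Foxp3 in Cy3 gave 0.99, 0.62 and 0.89, with no member passing in these 3 settings. Centring every array on the median of its miRNA probes gave means of 0.26, 0.16 and 0.10 while the median of all probes was 0.08. Taken as already turned, they were 0.25 for 1org-183, -0.18 for 1org-182 and -0.04 for 1org-96, so the direction of 2 members depended on the reading.

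At 72 h the 3 members were small in the turned reading. 1org-183 averaged 0.46 from 0.25 and 0.68, which placed it 13th of 171. 1org-182 averaged 0.16 from -0.37 and 0.69, and 1org-96 averaged 0.13 from -0.80 and 1.05, so the 2 arrays of each disagreed in sign. None of the 3 passed 1.5-fold with 1 sign on both arrays, where 4 of 171 probes did so on the likely higher side (2.34%) and 9 on the likely lower side (5.26%). Centred on the miRNA median, 1org-183 was at 0.35, from 0.84 and -0.15, while 1org-182 and 1org-96 were at 0.04 and 0.0065. Taken as already turned, all 3 lay below 0, at -0.21, -0.53 and -0.93 for 1org-183, 1org-182 and 1org-96, against a median of -0.67 for all probes. In that reading 1org-96 passed 1.5-fold on the lower side, as did 91 of 171 probes (53.2%).

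At 96 h the members came within 0.1 of one another in the turned reading. 1org-182 averaged 0.90 from 1.08 and 0.72, or 1.87-fold, with both arrays on the same side. 1org-96 averaged 0.82 from 1.66 and -0.03, so its mean came from replicate 1 alone. 1org-183 averaged 0.81 from 1.51 and 0.10. The median of all miRNA probes was 0.81, and 1org-182, 1org-96 and 1org-183 ranked 67, 79 and 86 of 171, so that 1org-183 was itself the median probe. Of the 3, 1org-182 and 1org-183 passed 1.5-fold with 1 sign on both arrays on the likely higher side, a count beside a background of 79 of 171 probes (46.2%). Centred on the miRNA median, none passed, with 0.28, 0.20 and 0.18 for 1org-182, 1org-96 and 1org-183, where 30 of 171 probes were past it on the higher side (17.5%). Centred on the U6 and tRNA probes instead, all 3 passed, at 1.23, 1.15 and 1.13, as did 108 of 171 probes on that side (63.2%). Taken as already turned, only 1org-96 of the 3 passed, at 0.84, against 58 of 171 probes on the higher side (33.9%), with 1org-183 at 0.70 and 1org-182 at 0.18. No test was made within a time point, which is a single replicate.

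**Figure D2:**
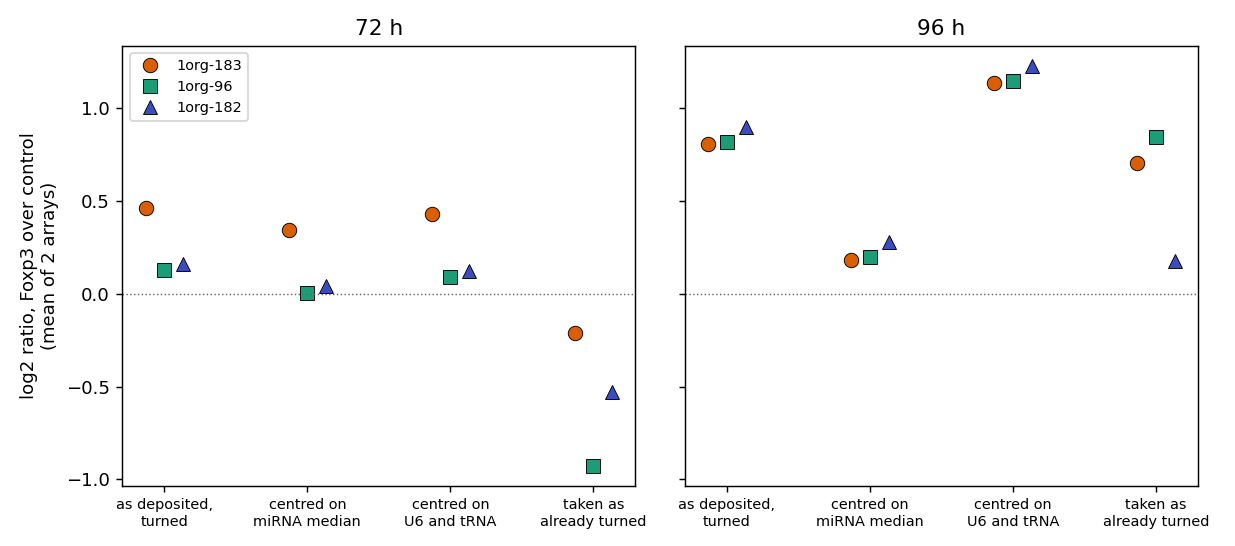
Log2 ratio of Foxp3 over control (vertical axis, mean of the 2 arrays) of the 3 cluster probes at 72 h (left) and 96 h (right) as deposited and turned, centred on the miRNA median, centred on U6 and tRNA, and taken as already turned. At 96 h the turned values lie together at 0.81 to 0.90 and drop to 0.18 to 0.28 with miRNA centring, and at 72 h the already turned values lie below 0.

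Only 1org-183 had 1 sign on all 4 turned arrays, at 0.25, 0.68, 1.51 and 0.10, which 3 of 171 probes had on the likely higher side (1.75%) and 10 on the likely lower side (5.85%). It lost that sign after centring on the miRNA median, when its 72 h array with Foxp3 in Cy3 stood at -0.15, and 7 other probes (4.09%) then had 1 sign on the higher side. It kept the sign after centring on U6 and tRNA, where 13 of 171 did so (7.6%). In the already turned reading no member had 1 sign on all arrays, while 12 of 171 probes were higher on all 4 (7.02%).

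Between the time points, turned ratios were larger at 96 h than at 72 h by 0.74 for 1org-182, 0.69 for 1org-96 and 0.34 for 1org-183, beside a median of 0.61 over all miRNA probes. Centred on the miRNA median the differences were 0.24, 0.19 and -0.16, and centred and scaled 0.19, 0.18 and -0.30, so that the direction of 1org-183 changed. They were 1.10, 1.06 and 0.70 centred on U6 and tRNA, and 0.705, 1.77 and 0.92 in the already turned reading. The arrays of the time points did not overlap for 1org-182, whose 72 h values of -0.37 and 0.69 lay below its 96 h values, and they overlapped for the other two. In all, 8 of 171 probes were higher at 96 h by 1.5-fold with no overlap (4.68%). Centred on the miRNA median, no member met this although 23 of 171 probes did (13.5%), and centred on U6 and tRNA all 3 did, with 78 of 171 probes (45.6%). The gap of 1org-182 was narrow, from 0.688 to 0.723, and its difference fell to 0.21 and 0.56, below 1.5-fold, without the 72 h or the 96 h array with Foxp3 in Cy5. It was 1.27 and 0.92 without the 72 h or the 96 h array with Foxp3 in Cy3. For 1org-96 the difference was -0.23 and -0.15 without the arrays with Foxp3 in Cy5 and 1.62 and 1.54 without those in Cy3, so its direction rested on the dye assignment. 1org-183 went from 0.13 and -0.36 to 0.55 and 1.05 in the same settings. A limma model of all 4 arrays with an interaction of Foxp3 and time called 0 of 171 probes (0.0%) and had 0 unadjusted p under 0.05. Limma's adjusted p was 0.991 for each member, with a 95% confidence interval for 1org-182 of -2.35 to 3.83. Each time point is 1 replicate and its arrays are dye swaps of the same RNAs, so this model cannot decide whether the time points differ. In the already turned reading 1org-96 was the member whose time points lay apart, at -0.93 and 0.84, as did 116 of 171 probes (67.8%).

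The plain mean of the 2 deposited values of a time point was then set beside the turned ratio. It holds whatever is the same on both dye assignments, including the centring that the 2 arrays share. In the already turned reading it becomes the Foxp3 ratio. At 72 h this mean exceeded the turned ratio in size for 1org-182 (-0.53 against 0.16) and 1org-96 (-0.93 against 0.13), but not for 1org-183 (-0.21 against 0.46). At 96 h it was smaller than the turned ratio for 1org-182 (0.18 against 0.90), close to it for 1org-183 (0.70 against 0.81) and for 1org-96 (0.84 against 0.82). Over all miRNA probes its median size was 0.75 against 0.20 for the turned ratio at 72 h, and 0.65 against 0.82 at 96 h. Centred on the miRNA median, the 72 h pairs were 0.18 and 0.04 for 1org-182 and -0.22 and 0.0065 for 1org-96. For 1org-183 they were 0.495 and 0.345. At 96 h they were -0.47 and 0.28 for 1org-182, 0.20 and 0.20 for 1org-96 and 0.06 and 0.18 for 1org-183. The comparison thus depended on centring.

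**Figure D3:**
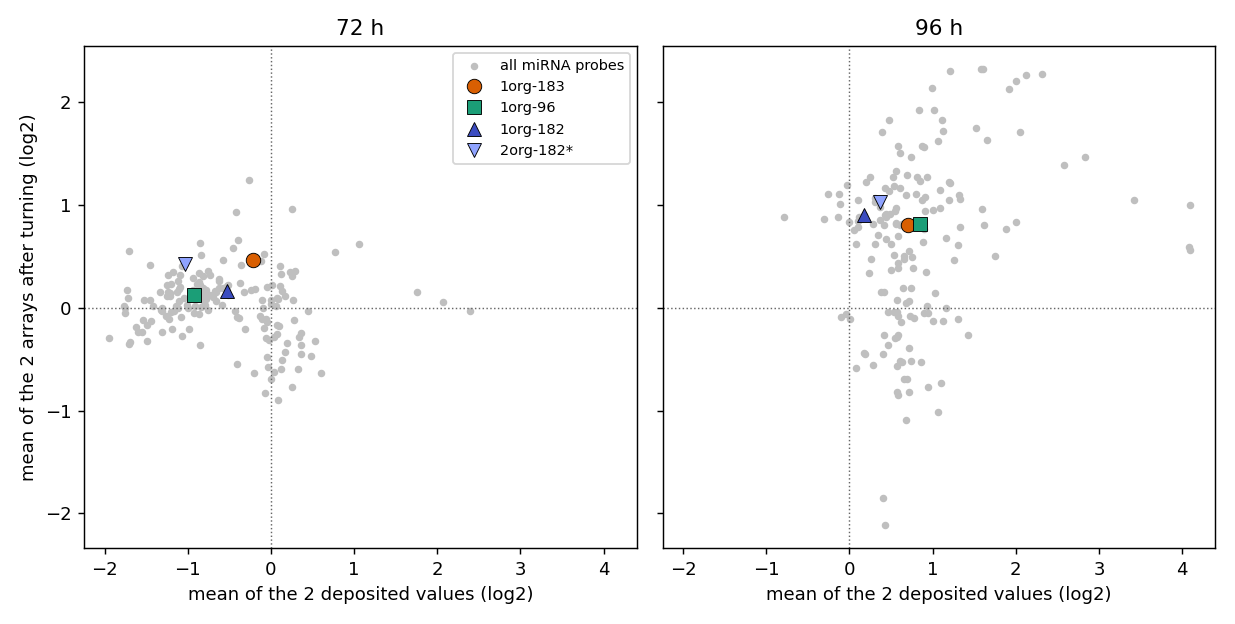
Mean of the 2 arrays after turning (vertical axis, log2) against the plain mean of the 2 deposited values (horizontal axis, log2) at 72 h (left) and 96 h (right) for all 171 miRNA probes (grey), the cluster probes and 2org-182*. At 72 h 1org-96 lies among the bulk of probes, at -0.93 along the horizontal axis with a turned ratio of 0.13, and at 96 h 1org-96 and 1org-183 lie close together at 0.84 and 0.70 along the horizontal axis.

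The Mir182 hairpin was read by both a plain and a star probe. Probe 2org-182* had deposited values of -0.61 and -1.45 at 72 h and 1.39 and -0.67 at 96 h. The signs matched those of 1org-182 on all 4 arrays, and its largest departure was on the 72 h array with Foxp3 in Cy3, where it was 0.76 lower than 1org-182. Turned, 2org-182* averaged 0.42 at 72 h and 1.03 at 96 h, with a mean of 0.72 ± 0.43 (SD, n = 2) and a limma adjusted p of 0.578. The star probe thus had the larger mean of the pair by 0.20 ± 0.10 (SD, n = 2) in this reading, and the smaller by 0.16 in the other. Like 1org-182 it passed 1.5-fold at 96 h on both arrays, within the 46.2% of probes that did.

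Among themselves the members differed by amounts that changed from array to array. As deposited, 1org-183 exceeded 1org-182 on all 4 arrays, by 0.62 and 0.01 at 72 h and by 0.43 and 0.62 at 96 h. Because that gap did not turn with the dye, it nearly cancelled after turning, to 0.11 ± 0.28 (SD, n = 2), and stood at 0.42 in the already turned reading. 1org-182 exceeded 1org-96 on both 72 h arrays, by 0.43 and 0.36, and stood below it on both 96 h arrays, at -0.59 and -0.75 from it. That reversal followed the time point and not the dye, so the turned difference was 0.06 ± 0.03 (SD, n = 2). 1org-183 exceeded 1org-96 by 1.05 and 0.38 at 72 h and stood at -0.15 and -0.13 from it at 96 h. None of these differences depends on centring, and none was tested, since members are not replicates.

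As a measure of likeness, the Euclidean distance between the 4 deposited values of probes was used, which neither centring nor turning alters. The distance was 0.98 between 1org-183 and 1org-182, 1.11 between 1org-182 and 1org-96 and 1.14 between 1org-183 and 1org-96, against a median of 2.14 over all 14535 pairs of miRNA probes. Of all pairs, 11.8%, 15.7% and 16.8% were closer than these. The near neighbours Mir183 and Mir96, 116 bases apart, were not the closest pair in value, and the pair most alike in mature sequence, miR-182 and miR-183, was. The 2 probes of the Mir182 hairpin lay at 0.86, with 8.22% of all pairs closer. 2org-182* lay about as near to 1org-96, at 0.87, and at 1.29 from 1org-183. 1org-182 ranked 29th among the neighbours of 2org-182*. In other clusters, measured pairs had a median distance of 1.09 for the 5 probes of miR-23, miR-27 and miR-24, 1.20 for 5 probes of the miR-17 cluster, and 0.48 for the single pair of miR-200a and miR-200b.

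No member was the nearest probe of another. 1org-182 ranked 17th among the neighbours of 1org-183, and 1org-96 ranked 34th among those of 1org-182. Outside the cluster the probes most like 1org-182 over the 4 arrays were 1org-30b (distance 0.44), 2org-181c (0.46) and 1org-1d (0.55). Those most like 1org-96 were 2org-220 (0.29), 1org-194 (0.38) and 1org-199-s (0.43). Those most like 1org-183 were 1org-201 (0.42), 1org-24 (0.45) and 2org-197 (0.47). With each array scaled by its spread, 7 of these 9 neighbours remained.

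The cluster was last set beside other miRNAs that activation of T cells raises, 13 probes matched by ID. The 13 are not independent, since they include the 5 probes of the miR-17 cluster. Of those 5, 4 lay below 0 at both time points in the turned reading. In the turned reading all 3 members lay above 0 at both time points, as did 91 of 171 miRNA probes. Of all 171, 33 lay below 0 at both and 47 were mixed. Of the 13 others, 2 lay above 0 at both (1org-146 and 2org-212), 8 lay below 0 at both and 3 were mixed. Their median was -0.12 at 72 h and -0.70 at 96 h, against 0.16 and 0.82 for the members and 0.07 and 0.81 for all miRNA probes. The highest mean was 0.43 ± 0.33 (SD, n = 2) for 1org-146, a miRNA that restrains inflammatory signalling, and the lowest -1.51 ± 0.87 (SD, n = 2) for 2org-222, which targets cell cycle inhibitors. Of the 13, 0 passed in limma's fit. Centred on the miRNA median, 10 of the 13 lay below 0 at both time points and none above, beside 53 below and 52 above of all 171. In the already turned reading, 9 of the 13 lay above 0 at both time points and none below. The 3 members were each below 0 at 72 h and above 0 at 96 h. Over all 171 probes in that reading, 41 lay above 0 at both, 9 below and 121 were mixed. Of 9 probes for miRNAs that activation reduces, 2 lay above 0 at both time points, 2 below and 5 were mixed in the turned reading, with medians of -0.24 at 72 h and 0.07 at 96 h. With the other reading, 2 of the 9 were above 0 at 72 h and all 9 at 96 h, with medians of -0.20 and 0.57. Of all 171 miRNA probes, 42 and 161 were above 0 there.

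**Figure D4:**
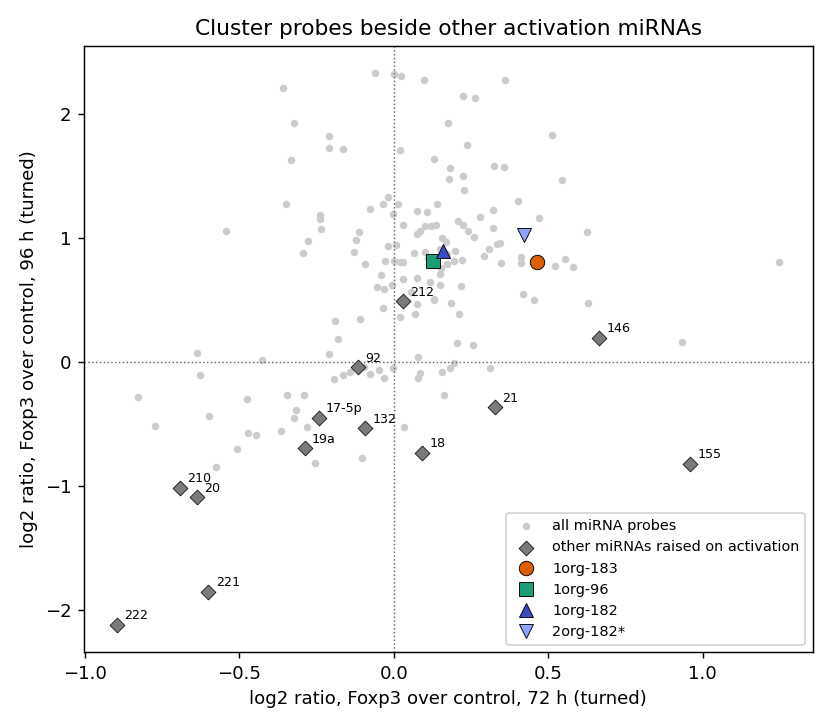
Turned log2 ratio of Foxp3 over control at 96 h (vertical axis) against 72 h (horizontal axis) for all 171 miRNA probes (grey), 13 other miRNAs raised on T cell activation (diamonds, labelled by number), the cluster probes and 2org-182*. The cluster probes sit in the upper right at 0.81 to 0.90 on the vertical axis, while 11 of the 13 diamonds lie below 0 at 96 h. Of all 171 miRNA probes, 127 lie above 0 at 96 h.

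Probes for miRNAs of other cells were then read beside the cluster, against all miRNA probes, of which 102 of 171 (59.6%) lay above 0 at 72 h and 127 of 171 (74.3%) at 96 h in the turned reading. All 6 epithelial probes were positive at 96 h, from 0.56 to 1.73, but their median of 0.85 was close to the 0.81 of all probes, and 4 of 6 remained above 0 after centring on the miRNA median. At 72 h 4 of the 6 were positive, with a median of 0.09. All 4 neural probes were positive at 96 h, with a median of 1.12, and stayed so after that centring, and 2 of 4 were positive at 72 h, with a median of 0.06. Left out of this neural list by their IDs were 1org-128 (0.24 and 1.06) and 1org-9* (0.55 and 0.83), both positive at 72 h and 96 h. The single erythroid probe, 1org-144, had 0.17 and 1.93, and the single myeloid probe, 2org-223, had -0.21 and 1.83. Of 6 probes for miRNAs typical of T cells, 2 were positive at 72 h and 2 at 96 h (medians -0.28 and -0.44). After centring, 0 of 6 were positive at 96 h. These 6 include probes that share a number in their IDs and disagreed. At 72 h and 96 h, 1org-142-s had 0.63 and 0.47, 1org-142-as had -0.51 and -0.70, and 2org-142* had -0.45 and -0.59. The list holds 1org-181 (-0.11 and 0.35) but not 2org-181b (0.07 and 0.47) or 2org-181c (0.15 and 0.62).

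In the other reading these lists did not part in this way at 96 h, when 161 of 171 miRNA probes lay above 0. All 6 epithelial, all 4 neural and all 6 T cell probes were then positive, with medians of 2.70, 0.67 and 0.58, against 0.65 for all miRNA probes. At 72 h their medians were 0.31, -1.25 and 0.03, against -0.67. In that reading 1org-144 had -0.93 and 0.83 and 2org-223 had -0.99 and 0.47. Ratios carry no level, so no marker could be called present or absent. The part of such signals in the values of the cluster was not tested.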

How the data were processed

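The table the authors deposited holds 1 value per probe and array, read here as a log2 ratio of Cy5 to Cy3. Neither labels nor file state its background correction, normalization, log base or direction. Values ran from -2.27 to 5.10, and if they were natural logs every log2 value would be 1.44 times larger. The table had 178 probes with 0 missing values, and 7 control probes were left out of the tests. The main test was limma 3.58.1 (R 4.3.3) with an intercept alone, on the dye-averaged turned ratios of 72 h and 96 h, with Benjamini-Hochberg adjustment over 171 miRNA probes. It was run on simulated data with independent noise and no dye or centring offset. That run does not show whether ratios as small as those of the members would be found. The number of arrays limits the precision, and the p-values of this test measure the spread between 2 time points, which may be technical. Those of the models with a dye term or a Foxp3 by time term measure a spread between arrays that share RNAs within a time point. Named were the members, the 3 probes nearest to each, probes sharing a seed with a member, and the highest and lowest of the activation list. Also named were the sole probes of the erythroid and myeloid lists (1org-144 and 2org-223) and the miR-200 pair of a comparison cluster. After their values were seen, 2org-182*, 2org-212, 1org-142-s, 1org-142-as, 2org-142*, 1org-181, 2org-181b, 1org-128 and 1org-9* were named too. The members, lists and tests were chosen with earlier results of these data known. Alternatives were centring, scaling, the reading of the sign, each array left out, a 2-fold limit, a dye term, a Foxp3 by time term, robust variance and control probes included. The already turned reading with miRNA centring was added after seeing the data.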

Additional observations from a re-analysis of the deposited data

Results flagged for a closer look

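In the reading as already turned, probe 1org-96 lay below 0 on both 72 h arrays (-0.80 and -1.05) and above 0 on both 96 h arrays (1.66 and 0.03), a difference between time points of 1.77. The difference was not tested in that reading, and it was 0.42 with miRNA centring as well. Of all miRNA probes, 116 of 171 (67.8%) were higher at 96 h by 1.5-fold with no overlap in the already turned reading. In the turned reading the arrays of 1org-96 had opposite signs within each time point.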

How the results depend on the processing

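Under centring on the miRNA median, centring on U6 and tRNA and each array left out, the mean of each member stayed above 0. A dye term over 4 arrays, robust variance and control probes included cannot change the mean, only its error and p-value. Taken as already turned, the means were -0.18 for 1org-182 and -0.042 for 1org-96, and with miRNA centring as well -0.14 and -0.0095; the cause was not tested. Leaving out 1 array moved the means between 0.27 and 0.79 (1org-182), 0.0087 and 0.94 (1org-96) and 0.28 and 0.99 (1org-183), and the number of probes called by limma between 0 and 94. Limma called 2 probes with miRNA centring, 3 taken as already turned and 7 with both, no member among them. At 72 h 1org-183 was at -0.21 taken as already turned, and 1org-96 at -0.01 when centred and scaled. At 96 h 1org-182 was at 0.28 with miRNA centring, 0.25 with scaling, 1.23 centred on U6 and tRNA, 0.18 taken as already turned and -0.47 with miRNA centring as well, where its difference between time points was -0.645.

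Of the members, 0 had 1 sign on all arrays with miRNA centring, with scaling, taken as already turned or with both. Between 1 and 2 had it with an array left out. The count of 2 came without 72 h replicate 1, where 93 of all 171 miRNA probes had 1 sign, in either direction. Past 1.5-fold at 72 h there was 1 taken as already turned, and between 0 and 3 with an array left out. The 3 came without 72 h replicate 1, where most of all 171 miRNA probes passed too, in either direction. With 1 array left at a time point, the condition of 1 sign on both arrays no longer limits the count. At 96 h there were 0 members past 1.5-fold with miRNA centring, scaling or both changes, and 0 past a 2-fold limit. There was 1 taken as already turned, and between 1 and 3 with an array left out. The 3 came without 96 h replicate 2, where 133 of all 171 miRNA probes passed, in either direction. With no overlap of the time points there were 0 with miRNA centring, scaling or a 2-fold limit. There were 3 with U6 and tRNA centring, and between 0 and 3 with an array left out. For all 171 miRNA probes, the count in either direction was 81 with U6 and tRNA centring. It was 120 without 96 h replicate 2, the setting in which 3 members passed. Taken as already turned, 1org-183 minus 1org-182 was 0.42 and 1org-182 minus 1org-96 was -0.13. Signal over background could not be used to weigh the probes.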
